A study of Bos taurus with 16 samples.

Results

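The 10 genes described here encode subunits of the transcription factor NF-kB and proteins that hold it back or are made in answer to it: NFKB1, NFKB2, RELA, RELB, NFKBIA, NFKBIE, NFKBIL1, TNFAIP3, BIRC3 and BCL3. They were taken by gene symbol, with every array probe that the authors' annotation gave to one of these symbols. This gave 10 of the 16966 gene symbols on the array and 23 of its 43653 probes. The rule used the symbols and no measured value, but earlier results of these data were known when the genes were chosen.

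NF-kB is a family of dimers that wait in the cytoplasm, held there by inhibitor proteins of the IkB family. Signals from receptors for bacterial products and for cytokines lead to destruction of the inhibitor, and the freed dimers move to the nucleus and switch on defence genes. Among the genes switched on are inhibitors of the pathway itself, such as NFKBIA and TNFAIP3, so that the response is self-limiting. In whole blood, neutrophils, monocytes and lymphocytes all use this pathway, and LPS, a cell wall component of Gram-negative bacteria, is a classic trigger of it.

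RNA was measured on 16 single-colour Agilent oligonucleotide arrays, 4 for each of 4 groups of whole blood from lactating Holstein Friesian cows. The groups were day 60 blood of cows given a commercial oral probiotic pack with LPS added to the blood at 100 ng/ml, day 60 blood of probiotic cows without LPS, day 60 blood of untreated cows given water, and day 0 blood drawn before supplementation. Per the labels, 10 cows were enrolled, 5 per arm, and the pack held yeast culture with Enterococcus faecium, Lactobacillus acidophilus, Aspergillus oryzae and Bacillus subtilis products. Blood had been held for 30 min at 37 °C in 5% CO2. The extraction lysed red cells separately from white cells. The labels name the day 0 pool after the probiotic cows, and whether untreated cows also entered it is not settled by them. RNA of the animals of a group was combined before labelling, so the arrays within a group repeat the hybridisation of a single pool, and the p-values below cover the spread between arrays and not between cows. Since blood is a mixture of cells, fewer cells of a type and less RNA per cell cannot be told apart.

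A probe is a 60-base oligonucleotide, and probes of the same gene did not always give signal on the same arrays. The oligonucleotides that the results turn on are printed here as the deposited annotation gives them. The first set holds the 3 tested probes of BIRC3, which shared no run of over 8 bases. All 3 were detected on 0 untreated arrays, while BIRC3 probe A_73_108229, which was not tested, was detected on 1. The set also holds a RELA probe that was well above background on all 4 LPS and all 4 probiotic arrays.
BIRC3 A_73_P102586: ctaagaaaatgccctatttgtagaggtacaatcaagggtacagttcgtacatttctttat
BIRC3 A_73_P298996: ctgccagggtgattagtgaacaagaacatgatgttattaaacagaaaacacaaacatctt
BIRC3 A_73_P377856: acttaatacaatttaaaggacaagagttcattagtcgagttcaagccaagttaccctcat
RELA A_73_P255231: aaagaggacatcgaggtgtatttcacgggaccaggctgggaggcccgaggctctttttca
The second set holds probes that gave little or no signal, on which the statements about TNFAIP3, NFKBIE and BCL3 rest, with an NFKBIA and an NFKBIL1 probe that did not follow the tested probe of the same gene.
TNFAIP3 A_73_106743: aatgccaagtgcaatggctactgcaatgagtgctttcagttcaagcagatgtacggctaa
NFKBIE A_73_P378296: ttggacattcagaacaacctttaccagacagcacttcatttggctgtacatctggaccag
BCL3 A_73_P067751: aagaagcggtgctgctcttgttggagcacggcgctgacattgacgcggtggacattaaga
NFKBIA A_73_P369076: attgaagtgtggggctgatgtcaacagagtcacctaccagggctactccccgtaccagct
NFKBIL1 A_73_P251596: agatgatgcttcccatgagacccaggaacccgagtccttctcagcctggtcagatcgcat
The NFKBIA probes A_73_102507 and A_73_P262576 overlap by 34 bases, of which the first 30 are shown. They begin at base 27 of A_73_102507 and at base 1 of A_73_P262576.
NFKBIA shared stretch: aggtgtgtgttcccctcctgtaaatagtgt

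Brightness differed between the groups, and this touches every comparison below. Spots well above background by the scanner software's own call made up 22.5% to 42.1% of spots on the LPS arrays, 26.4% to 37.1% on the probiotic arrays, 12% to 17.9% on the untreated arrays and 8.26% to 23.0% on the day 0 arrays. Signals are therefore given as a percentage of each array's reference level, the 75th percentile of the 671 probes that were well above background on all 16 arrays. That level was 1797 to 11190 scanner units on the LPS arrays, 7120 to 11944 on the probiotic arrays, 1076 to 1380 on the untreated arrays and 777 to 3025 on the day 0 arrays. No slide held arrays of more than 1 group, which means that the effect of slide and that of group cannot be told apart. Only the LPS and probiotic arrays shared a scan day. Replicate 4 of LPS and of day 0 had the lowest reference levels of their groups. The scanner software's linear fit to the spike-in controls had an R2 of 0 on all 4 untreated arrays, probiotic replicate 4 and LPS replicate 4. On the other arrays it was 0.927 to 0.999. What this means for the results was not tested. On the untreated arrays detection also followed position: of the probes detected on all probiotic arrays, 38.3% to 59.6% were detected on all 4 untreated arrays in rows 178 to 399 of the array's 532 rows, and 5.53% to 13.8% in the other rows. Across probes, the median Spearman correlation between arrays was 0.664 within LPS, 0.826 within probiotic, 0.486 within untreated and 0.622 within day 0, and it was 0.301 between probiotic and untreated arrays.

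Markers of blood cells were present, and their levels moved with the groups as well. The summed level of the 8 tested neutrophil markers of 10 listed ran from 175% to 729% of the reference level on the LPS arrays, from 697% to 916% on the probiotic arrays, from 78.1% to 146% on the untreated arrays and from 313% to 780% on the day 0 arrays. The summed level of the 10 T cell markers ran from 423% to 553%, from 429% to 526%, from 33.6% to 286% and from 464% to 552% in the same order of groups. For the 4 tested monocyte markers of 8 listed the ranges were 98.8% to 197%, 165% to 233%, 39.3% to 84.1% and 158% to 230%. On the untreated arrays the defining markers CD3E of T cells, CSF1R of monocytes and CXCR1 of neutrophils were well above background on 0 of 4 arrays each, while CD14 and LYZ of monocytes and CD2 of T cells were so on 4. Of the 8 tested neutrophil markers, 6 were higher and 2 lower in probiotic over untreated, and 3 were higher and 0 lower in probiotic over day 0. Of the 10 T cell markers the counts were 5 and 1, and 0 and 0, in those comparisons. Over all genes the shares higher and lower were 32.5% and 29.5% in probiotic over untreated, and 5.29% and 1.01% in probiotic over day 0. The T cell share over both directions together in probiotic over untreated is close to the 62.0% of all genes. The part of cell composition in the results on the members was not tested.

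Detection of the members differed between the groups, as it did for the array as a whole. Of their 23 probes, 9 were well above background on all 4 LPS arrays, 12 on all 4 probiotic arrays, 1 on all 4 untreated arrays and 4 on all 4 day 0 arrays. Over all probes of the array the corresponding shares were 14.9%, 23.7%, 5.57% and 6.56%. A probe was tested when all 4 arrays of at least 1 group showed it well above background, which held for 12 of the 23 probes and 8 of the 10 genes. These 12 are the probes detected on all 4 probiotic arrays, so they passed through that group. Tests were run on log2 of the signal after values below a floor of 1.1% of the reference level had been raised to it. The floor is the median over the 16 arrays of the lowest signal called well above background, which was 5.68% to 10.7% on the untreated arrays and up to 4.95% on the day 0 arrays, so signals between the floor and those limits were not measured there. NFKBIL1 probe A_73_108030 was the only member probe detected on all 16 arrays, and 2 probes, A_73_106743 of TNFAIP3 and A_73_P378296 of NFKBIE, were detected on none.

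**Figure D1:**
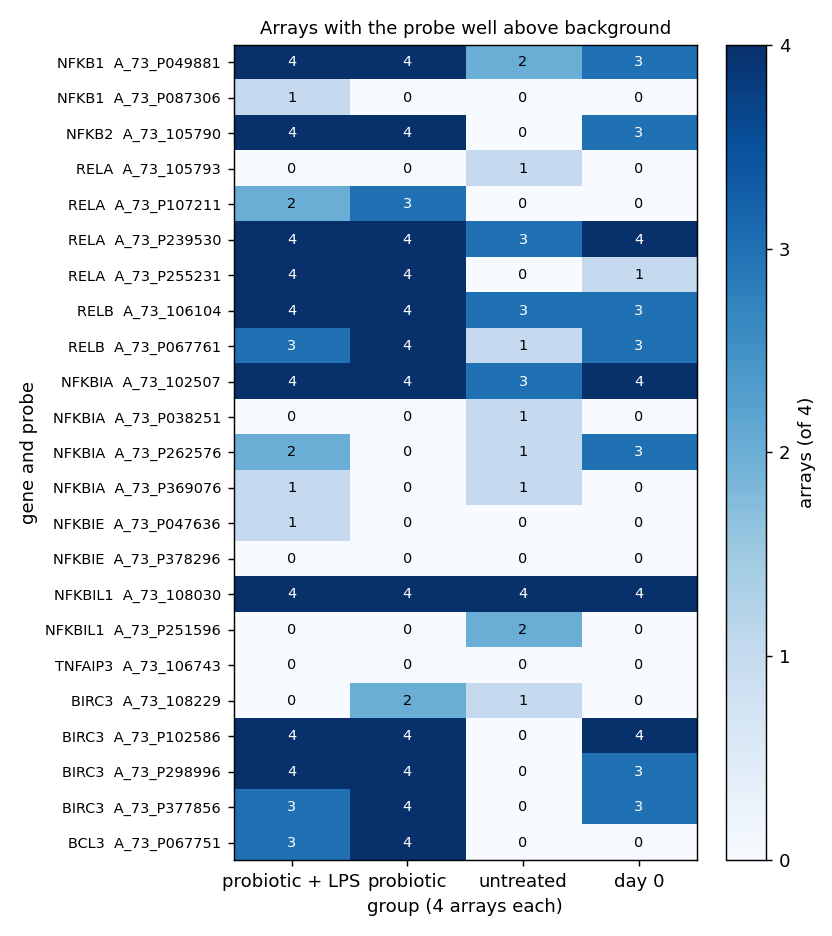
Number of arrays, of 4 in each group, on which each of the 23 probes was well above background. Columns are the groups and rows the probes, darker blue standing for more arrays. The probiotic column holds 12 probes at 4 of 4 arrays and the untreated column 1.

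NFKB1 encodes p105, the precursor of the p50 subunit. Its probe A_73_P049881 gave 9.03%, 15.3%, 4.41% and 5.91% of the reference level on the LPS arrays and 13.7%, 8.59%, 11.4% and 5.14% on the probiotic arrays. The untreated arrays gave -3.78%, 10.5%, 21.4% and -2.30%, and the day 0 arrays 21.7%, 19.4%, 15.6% and 2.23%. All 4 groups overlapped, and the untreated pool was well above background on 2 of 4 arrays. The other NFKB1 probe, A_73_P087306, was detected on a single LPS array, at 5.70%.

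NFKB2 encodes p100, the precursor of the p52 subunit used by the non-canonical branch of the pathway. Its only probe gave 7.96%, 6.61%, 6.09% and 2.19% on the LPS arrays, 7.96%, 8.11%, 8.16% and 11% on the probiotic arrays, 4.17%, 2.73%, 2.11% and 5.78% on the untreated arrays, and 7.07%, 7.61%, 8.0% and 4.41% on the day 0 arrays. Every probiotic array lay above every untreated array, and no untreated array was well above background for this probe.

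RELA encodes p65, the subunit that carries the activation domain of the most common dimer. Of its 4 probes, 2 were tested. Probe A_73_P255231 gave 1.86% to 3.52% on the LPS arrays and 1.89% to 3.01% on the probiotic arrays, against -1.06% to 0.589% on the untreated arrays and 0.576% to 1.22% on the day 0 arrays. It was well above background on 0 untreated arrays and 1 day 0 array, and the probiotic values lie under the lowest detected signal of the untreated arrays, 5.68% to 10.7%, so the probiotic and untreated pools cannot be ordered by it. Probe A_73_P239530 gave 26.6%, 22.7%, 22.8% and 56.0% on the LPS arrays, 22.2%, 23.2%, 23.9% and 27.4% on the probiotic arrays, 153%, 159%, 134% and -3.69% on the untreated arrays and 23.7%, 27.1%, 23.8% and 13.9% on the day 0 arrays. Thus 3 untreated arrays were the highest of all 16 for this probe and the remaining untreated array was at background. The other RELA probes, A_73_105793 and A_73_P107211, were detected on 1 and 5 of the 16 arrays.

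RELB encodes a subunit that pairs with p52 in the non-canonical branch. Probe A_73_106104 averaged 19.6% ± 11.9 on the LPS arrays, 22.8% ± 8.05 on the probiotic arrays, 11.6% ± 9.06 on the untreated arrays and 20.7% ± 11.1 on the day 0 arrays (SD, n = 4 arrays each), and all groups overlapped. Probe A_73_P067761 gave 1.84%, 1.57%, 2.19% and 0.620% on the LPS arrays, 1.78%, 1.86%, 1.98% and 2.01% on the probiotic arrays, 7.06%, 29.1%, 2.11% and 2.50% on the untreated arrays and 1.60%, 1.74%, 1.76% and -0.235% on the day 0 arrays. The untreated values lay above the probiotic ones, but only replicate 2, at 29.1%, was well above background.

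NFKBIA encodes IkBα, the inhibitor that retains p65 dimers in the cytoplasm and that NF-kB itself induces. Its probe A_73_102507 gave 119%, 140%, 124% and 189% on the LPS arrays and 97.1%, 80.6%, 82.8% and 115% on the probiotic arrays. The same probe gave 25.4%, 17.2%, 18.0% and 4.90% on the untreated arrays and 42.2%, 45.0%, 49.2% and 57.3% on the day 0 arrays. No 2 groups overlapped, in the order LPS, probiotic, day 0 and untreated from high to low. In unscaled scanner units the probe ran from 3404 to 15621 on the LPS arrays, from 8160 to 11593 on the probiotic arrays, from 62.3 to 274 on the untreated arrays and from 445 to 1275 on the day 0 arrays, and on that scale the LPS and probiotic arrays overlapped.

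The other 3 NFKBIA probes did not follow it. Probe A_73_P262576, which shares 34 bases with A_73_102507, was well above background on 2 LPS, 0 probiotic, 1 untreated and 3 day 0 arrays, with -0.0471% to 0.101% on the probiotic arrays and 2.03% to 2.79% on the day 0 arrays. Probes A_73_P038251 and A_73_P369076 were detected on 1 and 2 of the 16 arrays, and 0 of them were probiotic arrays. The statements on NFKBIA therefore rest on 1 probe.

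NFKBIE encodes IkBε, another cytoplasmic inhibitor. Its 2 probes were at or near background: A_73_P047636 was detected on 1 of 16 arrays, LPS replicate 4, at 2.56%, and A_73_P378296 on none. NFKBIL1 encodes a protein related to the IkB family through its ankyrin repeats. Its probe A_73_108030 gave 18.9%, 15.1%, 14.6% and 30.6% on the LPS arrays, 15.0%, 16.5%, 16.3% and 23.1% on the probiotic arrays, 139%, 152%, 193% and 202% on the untreated arrays and 16.9%, 18.5%, 20.8% and 18.5% on the day 0 arrays. The untreated arrays stood far above the rest on this scale. In unscaled scanner units the same probe ran from 1648 to 1809 on the probiotic arrays and from 1498 to 2576 on the untreated arrays, which overlapped. The other NFKBIL1 probe was detected on 2 untreated arrays, at 11.2% and 14.0%, and nowhere else.

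TNFAIP3 encodes A20, a ubiquitin-editing enzyme that shuts down signalling to NF-kB. Its only probe lay between -1.52% and 2.68% of the reference level on all 16 arrays and was not well above background on any of them, LPS arrays included, so no difference between groups can be given. BCL3 encodes a nuclear member of the IkB family that binds p50 and p52 dimers. Its only probe was detected on 3 LPS arrays at 0.598% to 0.628%, on all 4 probiotic arrays at 0.583% to 0.814%, and on 0 untreated and 0 day 0 arrays. These levels lie under the floor of 1.1%, so no difference is given for BCL3 either.

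BIRC3 encodes cIAP2, a ubiquitin ligase of tumour necrosis factor receptor complexes that is itself an NF-kB target. Its probe A_73_P102586 gave 65.8%, 55.4%, 58.0% and 81.3% on the LPS arrays, 58.2%, 60.9%, 61.4% and 85.4% on the probiotic arrays, -1.73%, -0.156%, -1.55% and -0.216% on the untreated arrays, and 30.8%, 32.0%, 30.5% and 21.7% on the day 0 arrays. The LPS and probiotic arrays overlapped, every day 0 array lay below both, and every untreated array was at background. Probe A_73_P298996 gave 2.69% to 22.8% on the LPS arrays, 18.7% to 24.6% on the probiotic arrays, -3.04% to 1.79% on the untreated arrays and 4.29% to 16.5% on the day 0 arrays. Probe A_73_P377856 gave 0.737% to 10.4%, 10.03% to 14.7%, -1.61% to 0.846% and 4.81% to 10.7% in the same order. All 3 probes thus placed the untreated arrays at background, and the low ends of the LPS and day 0 ranges were replicate 4 of each group. A further BIRC3 probe, A_73_108229, was at 60.0% on probiotic replicate 1 and at 1.49% or less on the other probiotic arrays.

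**Figure D2:**
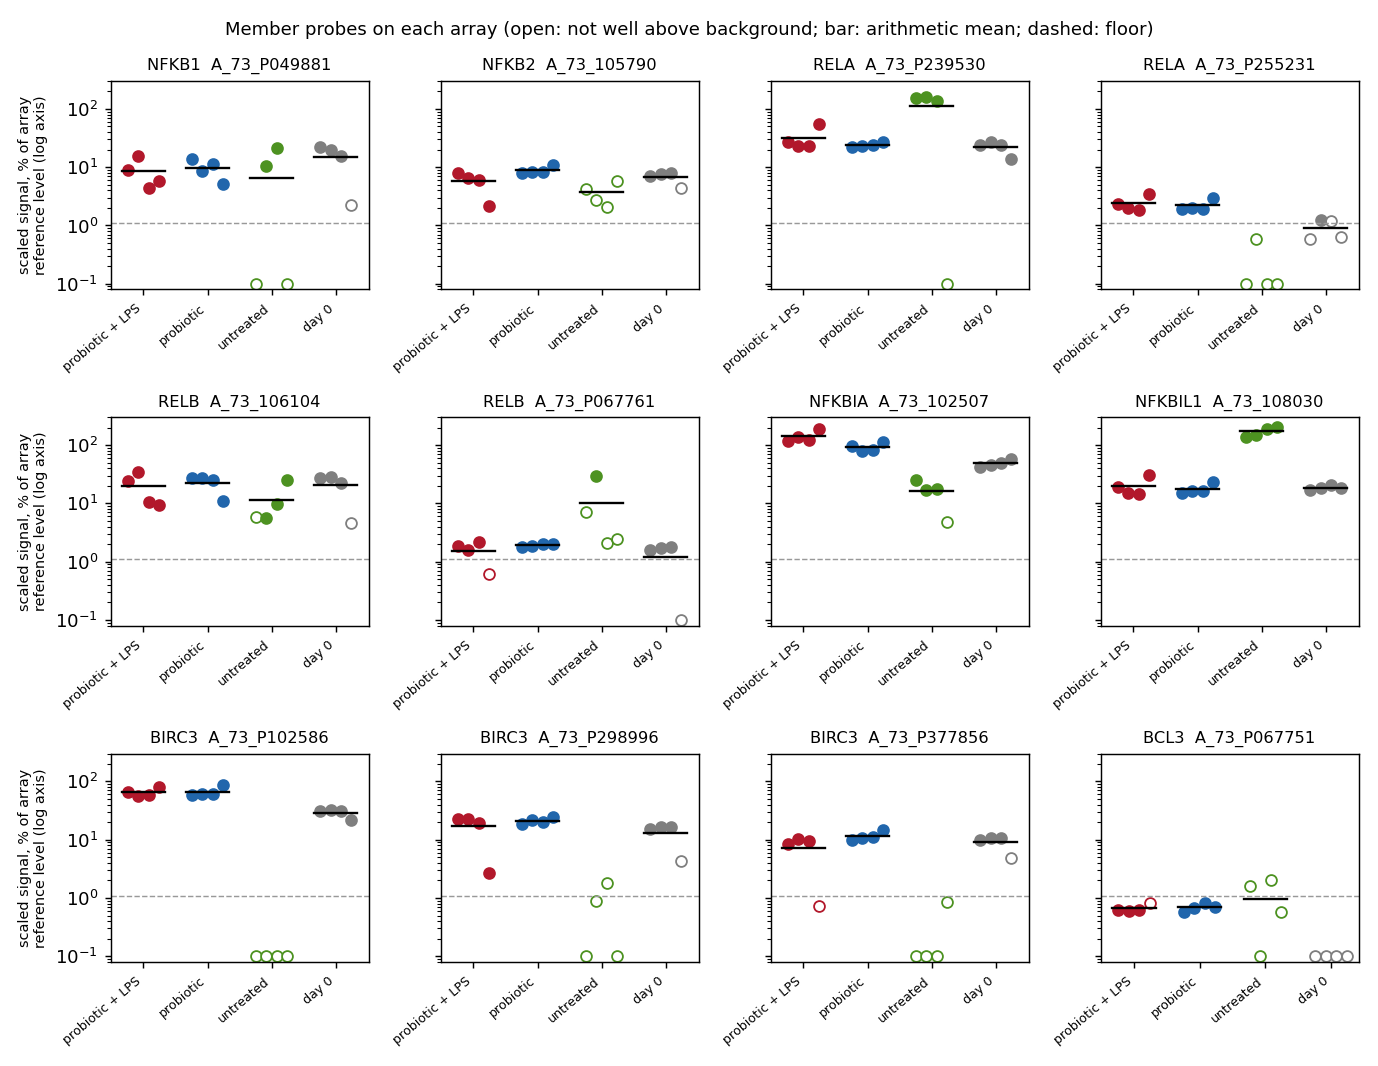
Signal of the 12 tested probes on each array, as a percentage of the array's reference level on a log axis, with the groups from left to right and the arrays of a group side by side. Filled points are well above background, bars are arithmetic means (not drawn where under 0.1%), the dashed line is the floor of 1.1% and points at or under 0.1% are drawn at 0.1%. NFKBIA lies between 119% and 189% on the LPS arrays and between 80.6% and 115% on the probiotic arrays, and the BIRC3 probe A_73_P102586 is at background on all 4 untreated arrays.

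The comparison of probiotic cows' blood with and without added LPS served, per the study's design, as a positive control. Per the labels, both had been held for 30 min at 37 °C. None of the members passed the test: 0 of 12 probes were called at an adjusted p under 0.05 with a fold of at least 2 (limma, Benjamini-Hochberg over 12198 probes), against 0.426% of all probes tested, 0.394% higher and 0.0328% lower. These were 48 higher and 4 lower probes, and 22 and 15 with the percentile taken over all probes. At an unadjusted p under 0.05 the count was 0 of the 12 member probes and 555 of all probes. NFKBIA averaged 143% ± 32.3 on the LPS arrays and 93.8% ± 15.7 on the probiotic arrays (SD, n = 4 arrays each), a log2 difference of 0.60 ± 0.39 (SE) with an adjusted p of 0.970. Every LPS array lay above every probiotic array for this probe. Leaving out any 1 of the 8 arrays, the difference stayed between 0.45 and 0.70 and was not called. NFKB2 differed by -0.76 ± 0.40 and the BIRC3 probe A_73_P377856 by -1.06 ± 0.57, both with an adjusted p of 0.970, and without LPS replicate 4 these values were -0.35 and -0.29. TNFAIP3, a standard early answer to LPS, could not be compared because its probe gave no signal above background.

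Probiotic against untreated blood at day 60 asks how expression differed with the supplement. BIRC3, NFKBIA and NFKB2 were higher in the probiotic pool, and NFKBIL1 and 1 of the 2 RELB probes were lower. Of the 12 member probes, 7 from 5 genes passed, 5 higher and 2 lower. Of all probes 59.6% passed, 30.8% higher and 28.7% lower. The members' share over both directions together is close to that background. The median log2 difference over all probes was 0.10. The balance of all calls depended on the scaling: 3762 higher and 3505 lower here, against 4967 higher and 1926 lower with the percentile taken over all probes, which moved the median of all probes to 0.74.

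BIRC3 was higher by all 3 tested probes. Of these, A_73_P377856 entered the test only through the probiotic arrays, where it is high, so its adjusted p adds no independent support. For all 3, no untreated array was well above background, so only a bound can be given. This bound is the probiotic mean over the lowest detectable signal on the untreated arrays under the scaling used. It was at least 7.94-fold for A_73_P102586 (adjusted p = 1.73e-11), at least 2.56-fold for A_73_P298996 (adjusted p = 5.79e-05) and at least 1.39-fold for A_73_P377856 (adjusted p = 0.000150). These adjusted p-values belong to fitted differences with the untreated values at or near the floor, which also narrowed their spread. They do not test the bounds. Among all probiotic-detected probes within 20 rows of these 3, 69.1%, 66.1% and 75.8% were likewise detected on no untreated array, with median log2 differences of 1.22, 0.92 and 1.17. With the floor set at the highest detection limit of any array, 10.7% of the reference level, A_73_P102586 still passed and the other 2 did not. Their log2 differences were then 0.98 and 0.12.

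NFKBIA averaged 93.8% ± 15.7 on the probiotic arrays and 16.4% ± 8.51 on the untreated arrays, a log2 difference of 2.73 ± 0.39 (adjusted p = 3.80e-05). The median of the 1829 probes in the rows around it was 0.67. The call held under every scaling tried from the scanner files and in every fit that left out an array, where the differences were 2.22 to 3.01. In the authors' deposited table of group averages, whose centring is unknown, the difference was -0.55.

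NFKBIL1 averaged 17.7% ± 3.66 on the probiotic arrays and 171% ± 30.7 on the untreated arrays, a log2 difference of -3.28 ± 0.24 (adjusted p = 4.74e-08). The 1453 probes in the rows around it had a median of 1.15, in the other direction. The authors' deposited table gave -0.43, under the fold threshold. NFKB2 passed as higher, with a fitted difference of 1.34 ± 0.40 (adjusted p = 0.00957). But 0 untreated arrays detected it and its values there lay under their detection limits, so the fitted size was not measured. Only a bound of at least 1.06-fold can be given, which the adjusted p does not test. The median for the 1722 probes around it was 1.2. The call was lost on the processed signal, whose difference was 1.34 with an adjusted p of 0.140, and with each array scaled locally by row, at 0.08. No difference is given for RELA probe A_73_P255231, since 0 untreated arrays detected it and its fitted value is set by the floor. RELA probe A_73_P239530 differed by -0.85 ± 1.21 and did not pass (adjusted p = 0.561), with 1 untreated array at background.

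RELB was tested by 2 probes. A_73_P067761 fell by 1.59 on the log2 scale, with an SE of 0.62 and an adjusted p of 0.0372, but 1 of 4 untreated arrays was well above background, and the probe lies in rows where the median of 452 surrounding probes was -2.13. Scaled locally by row, the difference was 0.75 with an adjusted p of 0.210, and without untreated replicate 2 it was -0.81 and not called. The call was lost in 6 of the 8 fits that left out 1 array. A_73_106104 differed by 1.17 ± 0.66 (adjusted p = 0.138), where the median of the 383 surrounding probes was -2.25. Scaled locally by row, its difference was 3.40 and passed (adjusted p = 0.000337). NFKB1 differed by 1.17 ± 0.97 (adjusted p = 0.306).

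**Figure D3:**
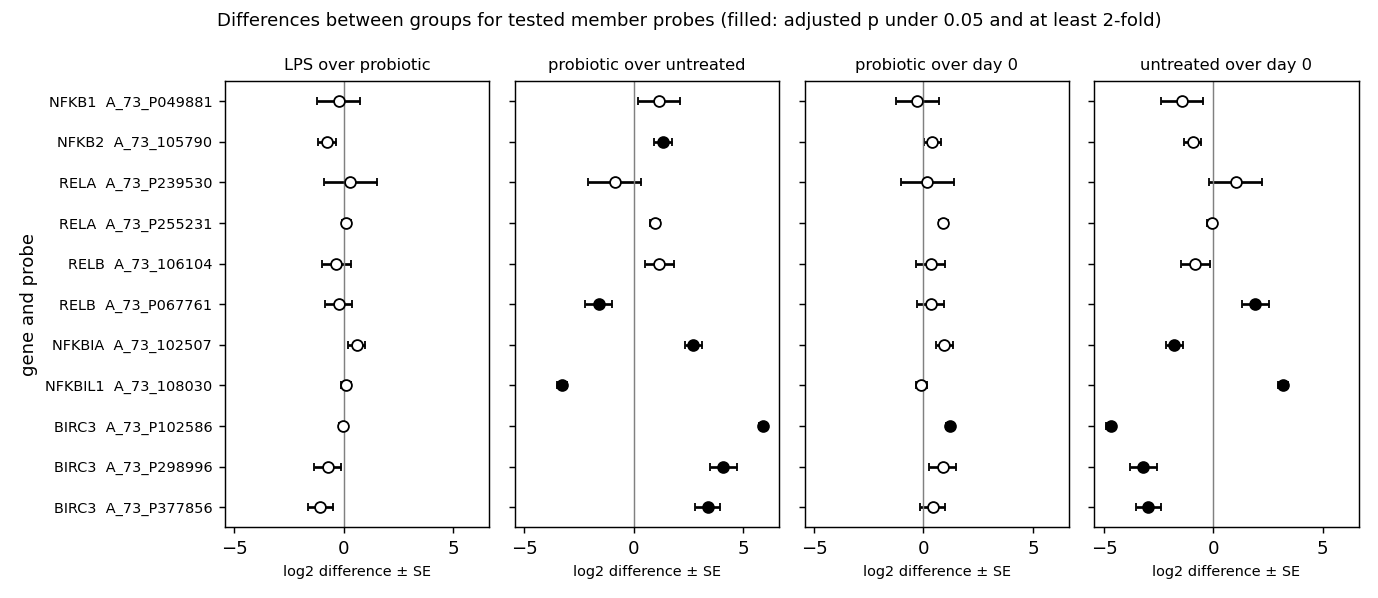
Log2 difference with its standard error for the 11 tested probes with levels above the floor, 1 panel for each comparison, 4 arrays per group. Filled points passed the test. The LPS panel has no filled point, and in the probiotic over untreated panel NFKBIL1 lies at -3.28. The places of the 3 BIRC3 probes and of RELA probe A_73_P255231 in the panels with the untreated arrays depend on the floor, since 0 of those arrays detected them. NFKB2 was also detected on 0 untreated arrays, and its places in those panels rest on values under their detection limits.

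**Figure D4:**
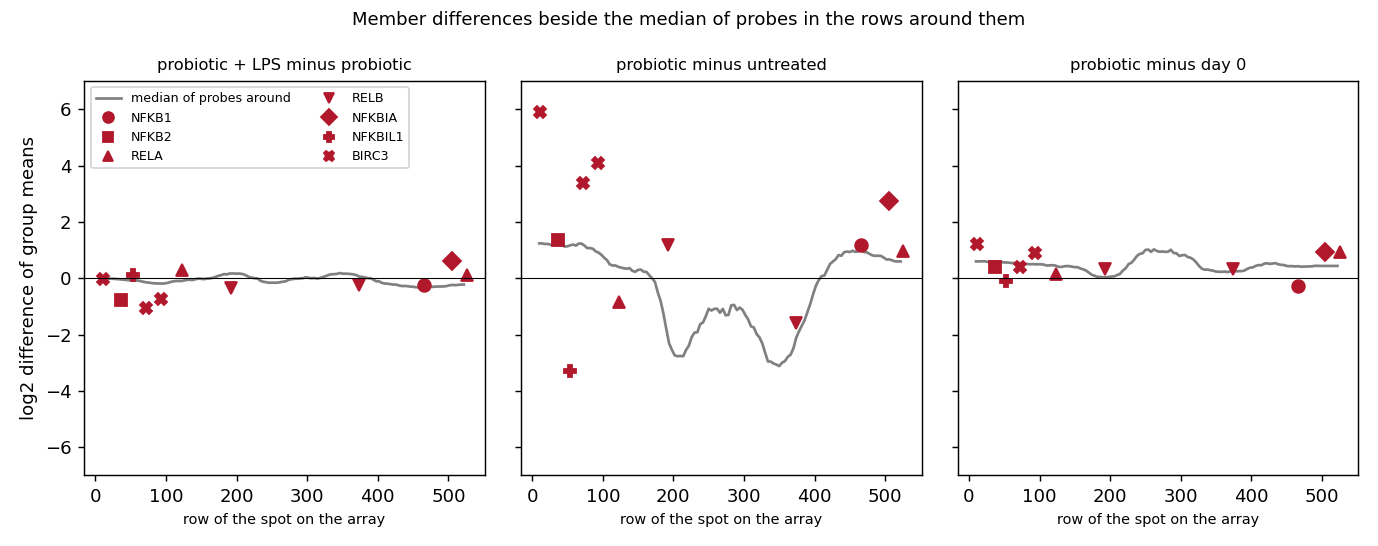
Log2 difference of the same probes (symbols) against the row of their spot on the array, with the median over all probiotic-detected probes within 20 rows as a line. In the probiotic minus untreated panel the line dips below 0 in the middle rows, RELB probe A_73_P067761 lies near the line, and NFKBIL1, RELB probe A_73_106104 and the BIRC3 probes lie away from it, the BIRC3 probes at places that depend on the floor.

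Probiotic blood at day 60 against day 0 blood asks what changed over the supplementation period. BIRC3 was the only member called. Its probe A_73_P102586 averaged 66.5% ± 12.7 on the probiotic arrays and 28.8% ± 4.77 on the day 0 arrays, a log2 difference of 1.21 ± 0.19 (adjusted p = 0.00226). This was 1 of 12 member probes, a share close to that of all probes, of which 6.8% passed, 5.8% higher and 0.992% lower. Those were 708 higher and 121 lower probes, against 326 and 218 with the percentile over all probes. The median of the 1316 probes around it was 0.59. The call was lost under 4 other scalings, with differences from 0.67 to 0.98 and adjusted p-values from 0.0701 to 0.0876, and in the authors' deposited table the difference was -0.61. The other BIRC3 probes differed by 0.88 ± 0.62 and 0.42 ± 0.57 (adjusted p = 0.444 and 0.750).

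NFKBIA averaged 93.8% ± 15.7 on the probiotic arrays and 48.4% ± 6.60 on the day 0 arrays, with no overlap, but the difference of 0.95 ± 0.39 did not pass (adjusted p = 0.161). On the processed signal, in which the software had multiplied 3 of the 4 day 0 arrays by a smooth position-dependent factor, it was 3.88 with an adjusted p of 0.00322. RELA probe A_73_P255231 differed by 0.91 ± 0.21 (adjusted p = 0.0185), under the fold threshold, and with day 0 well above background on 1 of 4 arrays this value depends on the floor. NFKBIL1, which differed so much from the untreated pool, averaged 17.7% ± 3.66 on the probiotic arrays and 18.7% ± 1.61 on the day 0 arrays, a difference of -0.09 ± 0.24 (adjusted p = 0.922). NFKB1, NFKB2, RELA probe A_73_P239530 and both RELB probes differed by -0.27 to 0.40 and did not pass.

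Untreated blood at day 60 was also set against day 0 blood. The labels name the day 0 pool after the probiotic cows, so time cannot be told apart from a difference between animals. BIRC3 and NFKBIA were lower in the untreated pool, and NFKBIL1 and 1 of the 2 RELB probes were higher. In this comparison 6 of 12 member probes from 4 genes passed, 2 higher and 4 lower, against 49.4% of all probes, 28.9% higher and 20.5% lower. Only the members' share over both directions together is close to that background. With the percentile over all probes, the calls over all probes were 1618 higher and 4029 lower, in place of 3528 higher and 2498 lower.

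BIRC3 was at least 3.44-fold lower in the untreated pool by probe A_73_P102586 (adjusted p = 1.29e-10), at least 1.39-fold lower by A_73_P298996 (adjusted p = 0.000548) and at least 1.04-fold lower by A_73_P377856 (adjusted p = 0.000524). Here too the adjusted p-values belong to fitted differences with untreated values at or near the floor and do not test the bounds. On the processed signal the log2 differences of the first and the last of these probes were -1.83 and -0.76 and did not pass (adjusted p = 0.0564 and 0.593). NFKBIA averaged 16.4% ± 8.51 on the untreated arrays and 48.4% ± 6.60 on the day 0 arrays, a difference of -1.78 ± 0.39 (adjusted p = 0.00165). On the processed signal this difference was 1.15 with an adjusted p of 0.315, and it was 2.33 in the authors' deposited table. NFKBIL1 averaged 171% ± 30.7 on the untreated arrays and 18.7% ± 1.61 on the day 0 arrays, a difference of 3.19 ± 0.24 (adjusted p = 6.84e-08). RELB probe A_73_P067761 differed by 1.92 ± 0.62 (adjusted p = 0.0188), and scaled locally by row it was -0.70 and not called. Under the 3 other scalings between arrays it was 0.23 to 0.56 and not called. This comparison shares the untreated arrays with the probiotic comparison at day 60, so the 2 are not independent.

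The wider pathway was followed with 35 further genes, kinases, adaptors, ubiquitin enzymes and other IkB proteins, of which 33 were on the array and 21 were tested with 1 probe each. In LPS over probiotic, 0 of 21 passed, beside 0.382% of all genes, 0.328% higher and 0.0546% lower. In probiotic over untreated, 8 were higher and 5 lower, beside 32.5% and 29.5% of all genes (62.0% in either direction), and between 5 and 12 were higher and 4 or 5 lower over the scalings tried. Here and in untreated over day 0 below, the list's share over both directions together is close to that of all genes. CHUK, the kinase IKKα, was at least 3.54-fold higher in the probiotic pool and TAX1BP1, an adaptor of A20, at least 1.88-fold higher. RBCK1, a subunit of the linear ubiquitin ligase, differed by -4.68 ± 0.61 and TNIP2, an A20-binding protein, by -4.13 ± 0.53, both lower in the probiotic pool. On the probiotic arrays RBCK1 ran from -0.0328% to 1.37% and TNIP2 from 0.0497% to 2.49%, so both sizes depend on the floor. NFKBID, a nuclear IkB protein, passed as lower too, with 0.0804% to 1.05% on the probiotic arrays and 10.3% to 21.6% on the untreated arrays, but its probiotic values lie under the floor and no size is given. TNIP2 and NFKBID entered the test only through the untreated arrays, where they are high, so their calls add no independent support. RBCK1 was well above background on 1 LPS, 3 probiotic and 4 untreated arrays, so its call carries a like limit. In probiotic over day 0, 0 were higher and 1 was lower, beside 5.29% and 1.01% of all genes (6.3% in either direction), and in untreated over day 0, 4 were higher and 7 lower, beside 29.2% and 22.2% (51.5% in either direction). On the processed signal these counts were 8 and 3 in probiotic over day 0, and 3 and 1 in untreated over day 0. The gene lower in probiotic over day 0 was TNIP2, named here after its value was seen. With normexp and quantile, and with row-local scaling, 0 genes of the list were lower in that comparison.

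Of 25 listed NF-kB target genes, all on the array, only 7 were tested, and the rest were not well above background on all 4 arrays of any group. In LPS over probiotic 0 of 7 passed, beside 0.382% of all genes. IL1B, the cytokine interleukin 1 beta, gave 27.5%, 26.2%, 23.5% and 2.59% on the LPS arrays, against 24.2%, 24.8%, 24.8% and 25.6% on the probiotic arrays, with a difference of -0.78 ± 0.83. In probiotic over untreated, 1 target was higher and 2 were lower, beside 32.5% and 29.5% of all genes. IL1B passed as higher in the probiotic pool (adjusted p = 0.0291 for the fitted difference), with a bound of at least 3.01-fold, which that p does not test. The chemokine gene CCL3 differed by -4.20 ± 0.55, and CCL4 passed as lower (adjusted p = 0.00633) with -0.0158% to 0.132% on the probiotic arrays, of which 0 detected it, and 33.1%, 21.6%, 32.2% and -1.87% on the untreated arrays, of which 3 detected it. No fold is given for CCL4. In probiotic over day 0, 1 target, PLAU, was higher and 0 were lower, beside 5.29% and 1.01% of all genes. That call was lost with the percentile over all probes, quantile normalization, normexp and quantile, and row-local scaling, and on the processed signal 3 were higher and 3 lower. In untreated over day 0, 1 target, CCL3, was higher and 0 were lower, beside 29.2% and 22.2%. Both were named after their values were seen.

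The symbols whose signal ran most like that of NFKBIA over the 16 arrays were CARKD, MAGEH1, PAFAH1B1, CD47 and CCDC32, with Pearson correlations of 0.961, 0.954, 0.949, 0.947 and 0.945 on the log2 scale. Over the 8 LPS and probiotic arrays alone the same correlations were 0.681, 0.851, 0.565, 0.234 and 0.586. The arrays of a group share a pool, a slide and a brightness, so these are descriptions only.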

How the data were processed

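The members and gene lists were chosen with earlier results of these data known. Per the file headers and the submitters' processing notes, the authors scanned each array with Agilent Feature Extraction 10.10.1.1 and deposited the background-subtracted intensity of each spot, before and after an optional smoothing by position, with no normalization between arrays. On day 0 replicates 2, 3 and 4 and LPS replicate 4 that smoothing had been applied, and the signal before it was used. The authors also deposited a table with a log2 average per probe and group, whose centring is not given in the sources used here and which served as an alternative only.

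From the deposited intensity, 1417 control spots and outlier spots (983 over all arrays) were left out, spots of a probe were averaged, each array was scaled to its reference level, values were floored at 1.1% of it and log2 was taken. Groups were compared by limma 3.58.1 in R 4.3.3 (lmFit and eBayes, two-sided, 16 arrays in 1 fit, Benjamini-Hochberg over 12198 probes), tested on simulated data first; matplotlib 3.10.9 drew the figures. With 4 arrays per group, their number limits the precision. Named were all members, up to 3 called genes of each NF-kB list with the largest fold in each direction in LPS over probiotic and in probiotic over untreated, and the 5 symbols most like NFKBIA. A gene that this rule names is not reported here. Blood cell markers were checked from fixed lists. In LPS over probiotic 0 of them passed, beside 0.382% of all genes. In probiotic over untreated the genes higher and lower were 2 and 1 of 4 tested for monocytes, 3 and 2 of 6 for B cells, 1 and 1 of 3 each for NK cells and platelets, and 1 and 1 of 4 for erythroid cells. The shares of all genes there were 32.5% higher and 29.5% lower. In probiotic over day 0, 1 B cell gene was lower and 0 of the other genes of these 5 lists passed, beside 5.29% of all genes higher and 1.01% lower. Alternatives were other signals, scalings, floors and filters, a replicate block, and arrays left out. The normexp alternative used median in place of mean spot signals. Gene names were updated through a RefSeq table of a later assembly than that of the array, so no positions are given.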

Additional observations from a re-analysis of the deposited data

Results flagged for a closer look

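In 53 sets of 4 arrays (a member probe in a group, detected at least once), 18 held 1 array whose gap to the nearest other array was above Dixon's critical value as a share of the set's log2 range. The usual chance rate of about 1 in 20 does not apply, since values below the floor had been raised to it. Where all other arrays of a set lay at the floor, the share was 1.0 by construction. Most of the flagged arrays were replicate 4 of LPS, probiotic or day 0. In LPS replicate 4, BIRC3 gave 2.69% of the reference level by A_73_P298996, against 19.4% to 22.8% on the other LPS arrays, and 0.737% by A_73_P377856, against 8.47% to 10.4%. On the same array 3 dim probes stood above the rest: NFKBIA A_73_P262576 at 6.51%, NFKBIA A_73_P369076 at 2.88% and NFKBIE A_73_P047636 at 2.56%. NFKB1 A_73_P087306 was at 5.70% on LPS replicate 3 and at 0.379% or less on the others. In probiotic replicate 4, NFKB2 was at 11.0%, RELA A_73_P255231 at 3.01% and BIRC3 A_73_P102586 at 85.4%, each above its group on the scaled signal, and RELB A_73_106104 was at 10.9%, below it. This array had the lowest reference level of its group. Unscaled, NFKB2 gave 783 scanner units on it against 881 to 951 on the other probiotic arrays, BIRC3 6079 against 6626 to 6947, and RELA 215 against 204 to 232. BIRC3 A_73_108229 was at 60.0% on probiotic replicate 1, or 7163 scanner units against 29.9 to 106 on the other probiotic arrays. In untreated blood, RELA A_73_105793 was at 69.5% on replicate 3 and RELA A_73_P239530 at -3.69% on replicate 4, where the other 3 untreated arrays gave 134% to 159%. In day 0 replicate 4, 5 probes lay below their group: NFKB1 A_73_P049881 at 2.23%, RELB A_73_106104 at 4.63%, and BIRC3 at 21.7% by A_73_P102586, 4.29% by A_73_P298996 and 4.81% by A_73_P377856. The causes were not tested.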

How the results depend on the processing

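With the replicate number as a block the member calls stayed at 0 in LPS over probiotic, 7 in probiotic over untreated, 1 in probiotic over day 0 and 6 in untreated over day 0. The numbers do not pair the arrays: 7 of 24 same-numbered pairs correlated above 0.1, with a median of 0.013. With each array left out in turn the 4 counts ran from 0 to 0, 6 to 9, 1 to 1 and 6 to 8. Of 880 alternative values of single probes, 735 counted as unchanged, 27 moved, 32 lost and 31 gained a call, and 55 changed sign. For refitted values, unchanged means the same direction and the same side of the threshold. For the authors' averages it means a distance from the main value under the larger SD of the compared groups. There a sign change was counted only where the main result was called. The causes were not tested. Row-local scaling, the lower floor and the joint removal of 2 arrays were chosen after seeing the data. In the authors' deposited averages, by fold alone, the counts were 9 in LPS over probiotic, all lower, 1 in probiotic over untreated and 8 in probiotic over day 0. There NFKB2 was -0.16 and NFKBIA -0.55 in probiotic over untreated, BIRC3 A_73_P102586 was -0.61 in probiotic over day 0, and in untreated over day 0 NFKBIA was 2.33 and BIRC3 A_73_P377856 0.42. With the higher floor the counts were 3 in probiotic over untreated and 3 in untreated over day 0, and NFKB1 was 0.020 in LPS over probiotic and -0.14 in probiotic over untreated. On the processed signal the count was 5 in probiotic over day 0. NFKB1 was then 0.19, RELA A_73_P255231 -0.41 and NFKBIL1 -0.41 in LPS over probiotic, NFKBIL1 was 2.19 in probiotic over day 0, and NFKB2 was 0.46, RELA A_73_P255231 2.85 and NFKBIA 1.15 in untreated over day 0. In probiotic over day 0 the count was 0 with the percentile over all probes, with quantile normalization, with normexp and quantile, and with row-local scaling. The percentile over all probes gave RELA A_73_P239530 -0.092, 0.51, -0.057 and -0.57 in LPS over probiotic, probiotic over untreated, probiotic over day 0 and untreated over day 0. In LPS over probiotic it gave RELA A_73_P255231 -0.27 and NFKBIL1 -0.28, and in probiotic over day 0 RELB A_73_P067761 -0.024. In probiotic over day 0, quantile normalization gave NFKB2 -0.088, RELA A_73_P239530 -0.33, RELB A_73_106104 -0.12 and BIRC3 A_73_P377856 -0.092, and normexp with quantile gave -0.024, -0.29, -0.12 and -0.089 for the same probes. Row-local scaling gave NFKB1 0.086 in LPS over probiotic, RELB A_73_P067761 0.75 in probiotic over untreated and -0.70 in untreated over day 0, RELA A_73_P255231 0.11 in untreated over day 0, and NFKB2 -0.13, RELA A_73_P239530 -0.19 and BIRC3 A_73_P377856 -0.085 in probiotic over day 0. Without replicate 4 of both day 0 and LPS, RELA A_73_P239530 was -0.0068, RELA A_73_P255231 -0.075, NFKBIL1 -0.12 and BIRC3 A_73_P298996 0.024 in LPS over probiotic, and RELA A_73_P239530 was -0.042 and RELB A_73_106104 -0.28 in probiotic over day 0. With 1 array left out, LPS over probiotic ran from -0.56 to 0.038 for NFKB1, -0.0068 to 0.43 for RELA A_73_P239530, -0.075 to 0.28 for RELA A_73_P255231, -0.12 to 0.25 for NFKBIL1, -0.14 to 0.098 for BIRC3 A_73_P102586 and -1.004 to 0.024 for BIRC3 A_73_P298996, and probiotic over day 0 ran from -1.04 to 0.055 for NFKB1, -0.042 to 0.28 for RELA A_73_P239530 and -0.28 to 0.67 for RELB A_73_106104. Signal over background limited what could be seen: 11 of the 23 probes were not tested, and on the untreated arrays the lowest detected signal was 5.68% to 10.7% of the reference level. Over all probes, the 52 calls in LPS over probiotic became 3 with the higher floor, 18 with no filter on dim probes, 33 with the block, 96 with the lower floor, 99 without both arrays and 151 on the processed signal, and 24 to 29 without probiotic replicate 1, 2 or 3. The 829 in probiotic over day 0 became 136 with the higher floor, 288 with row-local scaling, 364 with no filter, 377 with normexp and quantile, 544 with the percentile over all probes, 1597 with the 2 groups alone and 6548 on the processed signal, and 405 to 494 in 7 of the 8 fits without 1 array. The 7267 in probiotic over untreated and 6026 in untreated over day 0 became 2644 and 2055 with the higher floor and 11188 and 9393 with no filter.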

Other observations

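On the untreated arrays, 4 probes of NFKBIA and RELA that were detected on 0 probiotic arrays each gave a bright spot on a single array. NFKBIA A_73_P369076 was at 81.7% of the reference level on replicate 2 and between -0.297% and 6.44% on the other untreated arrays. NFKBIA A_73_P038251 was at 47.2% and NFKBIA A_73_P262576 at 35.0% on replicate 3, on which RELA A_73_105793 also stood out at 69.5%. On the array, A_73_P038251 and A_73_105793 lie in rows 115 and 119 of column 48, and A_73_P262576 in row 130 of column 64. An effect of position was not tested. In scanner units these spots gave 1127, 531, 393 and 781. A_73_P262576 was also well above background on 2 LPS and 3 day 0 arrays and A_73_P369076 on 1 LPS array.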
